A study of Mus musculus with 24 samples.

Results

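The Nduf genes of the mouse encode the nuclear subunits of respiratory complex I and several of the factors that build it. They were taken here as all genes whose symbol starts with Nduf and that have an array probe set (a group of probes read as 1 value) assigned to exactly 1 gene symbol. This gave 43 genes of the 19937 measured that way, and where a gene had several such probe sets, the brightest on average over the 24 arrays stood for it. All 43 were among the 14499 genes tested, and the rule reads symbols and mean levels, not changes. They comprise 6 core subunits, 9 accessory subunits of the peripheral arm, 9 of the proximal and 9 of the distal membrane arm, the acyl carrier subunit Ndufab1, the 7 assembly factors Ndufaf1 to Ndufaf7, and Ndufa4 with its relative Ndufa4l2.

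Complex I is the entry point of the mitochondrial respiratory chain. Its peripheral arm takes electrons from NADH through a flavin and a chain of iron-sulfur clusters to ubiquinone, and its membrane arm uses that energy to move protons across the inner membrane. Muscle fibres rich in mitochondria carry much of it, and the fibre types of a muscle differ in their content. Some of its core subunits are encoded in mitochondrial DNA and were not analysed here.

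RNA of the plantaris, a calf muscle, was hybridised to 24 Affymetrix whole-transcript arrays, 1 array for each of 6 biological replicates in 4 groups. The groups were untreated wildtype, overloaded wildtype, untreated Mstn-/- and overloaded Mstn-/- mice, all 3 months old at surgery or as controls. Mstn encodes myostatin, a secreted protein that limits muscle growth. Overload was made under pentobarbitone by removing the soleus and much of the gastrocnemius in both legs, and only 1 leg's plantaris went into RNA extraction. The same pentobarbitone dose is recorded for the samples of all 4 groups, the controls included. The controls had no operation, so effects of the surgery and of the added load cannot be told apart. The sources used here do not state the strain, the sex or the length of the overload.

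Values are log2 of the intensity, so a difference of 1 is a doubling, and differences are given with their standard error (SE). A gene is called lower or higher when its adjusted p in limma, a linear model fitted across all 14499 genes with Benjamini-Hochberg adjustment, is under 0.05. Each p measures the spread between these 24 arrays only. Mstn was lower on untreated Mstn-/- arrays (8.93 ± 0.31, SD, n = 6) than on untreated wildtype arrays (10.25 ± 0.11). Between the overloaded groups, at 8.25 ± 0.30 and 8.40 ± 0.19, its difference did not pass (adjusted p = 0.39). The place of its probe set relative to the deletion is not stated, so Mstn does not check the genotype labels under overload. Array medians of the deposited intensity lay between 139 and 147.

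The overloaded wildtype group held an array at either end. Replicate 3 had the lowest value of its group for 36 of the 43 Nduf genes, and replicate 4 had the highest for 28. limma's array weights, fitted to all genes, gave both 0.39 where an average array has 1, and untreated wildtype replicate 1 had 0.44. The counts of called Nduf genes that rest on overloaded wildtype arrays are also given without either array, and the differences of the genes described in detail without replicate 3.

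Under overload nearly the whole set was lower in wildtype muscle, and a smaller share of it in Mstn-/- muscle. In wildtype 41 of 43 genes were lower, against 35.6% of all genes tested, and 1 was higher, Ndufa4l2, against 30.3%. The median difference was -0.55, with -0.06 over all genes, and in 38 of 43 genes the untreated and overloaded arrays did not overlap, against 43.0% of all genes. In Mstn-/- muscle 22 genes were lower, against 33.5% of all genes, and 2 were higher, Ndufb2 and Ndufa4l2, against 27.1%. The median there was -0.18, again with -0.06 over all genes, and 12 genes did not overlap, against 39.9%. All 22 of these were also lower in wildtype. In whole muscle, fewer mitochondria-rich cells and less of these RNAs per cell cannot be told apart.

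Without overloaded wildtype replicate 3, the wildtype counts were 41 lower and 0 higher, with a median of -0.48. Without replicate 4 they were also 41 and 0, with a median of -0.59. The counts of lower genes by role were the same in both fits. The plot of overload differences by gene sets both genotypes side by side in order of the subunits' place in the complex.

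**Figure D1:**
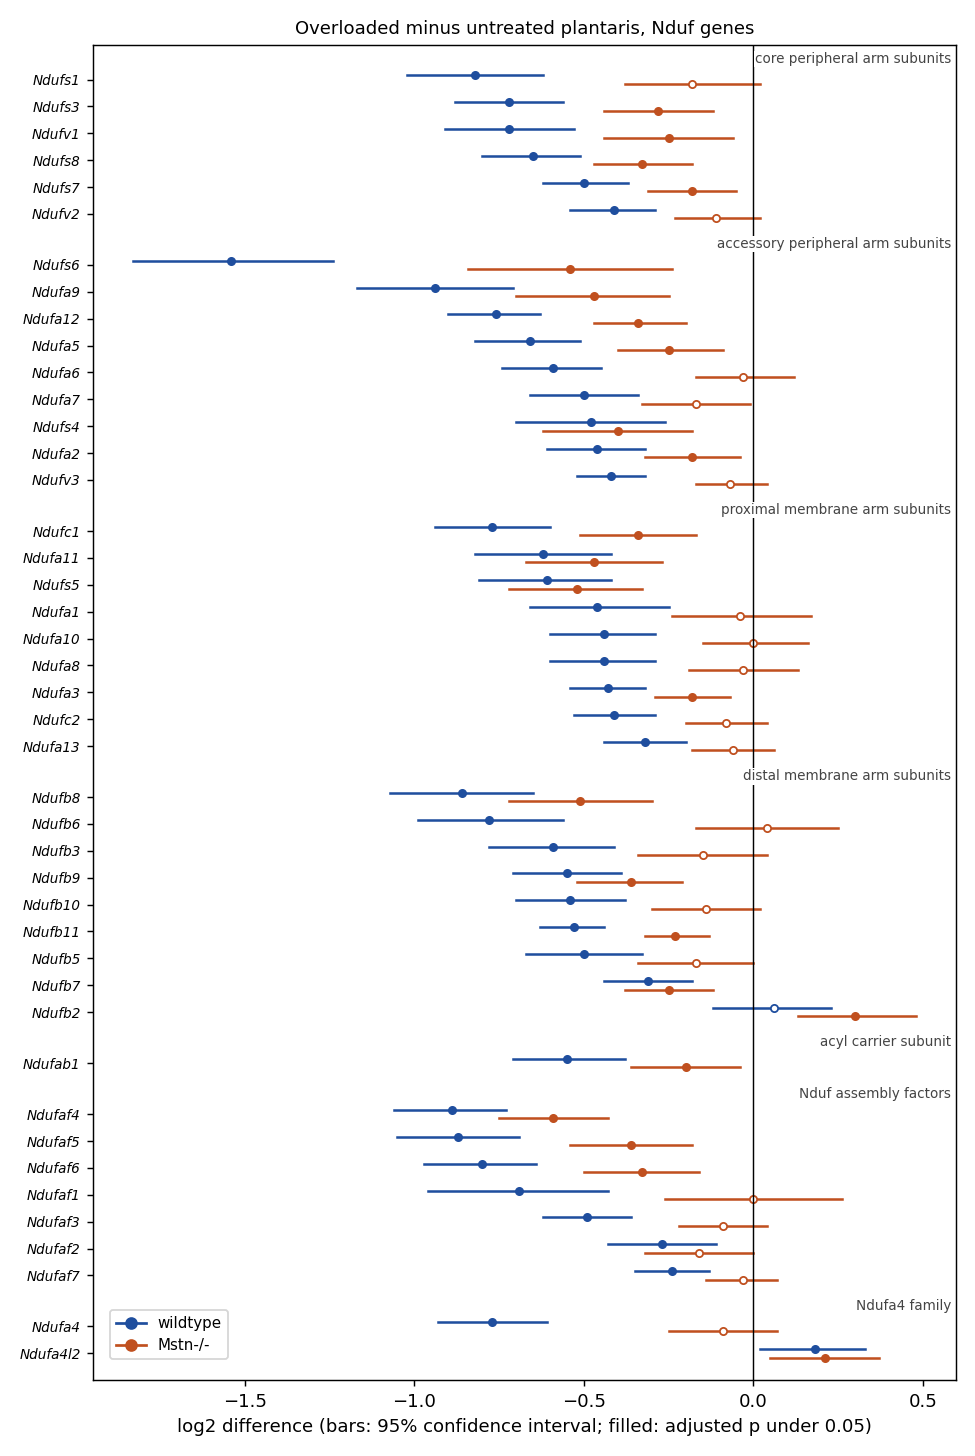
Overloaded minus untreated log2 intensity (x axis) for each of the 43 Nduf genes (y axis, grouped by role) in wildtype (blue) and Mstn-/- muscle (orange). Points are the fitted differences from 6 arrays per group, bars their 95% confidence intervals, and filled points have an adjusted p under 0.05. The blue points lie left of the orange ones in every row, and Ndufs6 is farthest left at -1.54.

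All 6 core subunits measured, most of which carry the flavin or iron-sulfur clusters, were lower under overload in wildtype. Their median was -0.69, with a range from -0.82 to -0.41. In Mstn-/- muscle 4 of 6 were lower, with a median of -0.22. Of all genes tested 35.6% were lower in wildtype and 33.5% in Mstn-/- muscle. Ndufs1, the largest subunit, which holds several of the clusters, lay between 10.69 and 10.99 (median 10.80) on untreated wildtype arrays and between 9.58 and 10.41 (median 10.03) on overloaded ones. These groups did not overlap, and the fall was 1.76-fold (-0.82 ± 0.10, adjusted p = 4.9e-08). On Mstn-/- arrays Ndufs1 ran from 10.50 to 10.82 (median 10.66) untreated and from 10.25 to 10.60 (median 10.52) overloaded. Those groups overlapped, and the difference of -0.18 ± 0.10 did not pass (adjusted p = 0.11).

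Ndufv1 binds NADH and the flavin. It ran from 11.32 to 11.47 (median 11.39) in untreated and from 10.09 to 10.95 (median 10.77) in overloaded wildtype muscle, a 1.65-fold fall (-0.72 ± 0.09, adjusted p = 1.3e-07). Mstn-/- arrays ran from 11.40 to 11.52 untreated and from 11.00 to 11.31 overloaded (-0.25 ± 0.09, adjusted p = 0.021, and 0.059 without overloaded Mstn-/- replicate 3). Neither genotype's arrays overlapped, and the overloaded wildtype values spread the widest. Ndufv2, its partner in the NADH-binding module, was lower in wildtype (-0.41 ± 0.06), and its Mstn-/- difference of -0.11 ± 0.06 did not pass (adjusted p = 0.12).

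Ndufs3, Ndufs7 and Ndufs8 lie in the module that hands electrons to ubiquinone. Ndufs3 was lower in both genotypes (-0.72 ± 0.08 in wildtype, -0.28 ± 0.08 in Mstn-/- muscle). For Ndufs7 the differences were -0.50 ± 0.06 and -0.18 ± 0.06. Ndufs8 ran from 12.14 to 12.38 untreated and 11.26 to 11.81 overloaded in wildtype (-0.65 ± 0.07), and from 11.78 to 11.95 untreated and 11.40 to 11.64 overloaded in Mstn-/- muscle (-0.33 ± 0.07). Its untreated Mstn-/- arrays already lay below every untreated wildtype array. With replicate 3 of overloaded wildtype left out, the wildtype differences of the core subunits were -0.73 for Ndufs1, -0.61 for Ndufv1, -0.35 for Ndufv2, -0.64 for Ndufs3, -0.44 for Ndufs7 and -0.59 for Ndufs8, and all 6 passed.

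All 9 accessory subunits of the peripheral arm, which surround the core and steady its assembly, were lower in wildtype (median -0.59), against 35.6% of all genes. In Mstn-/- muscle 6 of 9 were lower (median -0.25), against 33.5%. Ndufs6, a zinc-binding subunit that joins late, when the NADH module is attached, had the largest difference of all 43 genes. Its untreated wildtype arrays lay between 9.98 and 10.56 (median 10.06) and its overloaded ones between 8.30 and 8.76 (median 8.70). The groups were far apart, and the fall was 2.9-fold (-1.54 ± 0.15, adjusted p = 7.0e-10), or -1.47 ± 0.15 without overloaded wildtype replicate 3. On Mstn-/- arrays Ndufs6 ran from 9.48 to 10.32 (median 9.97) untreated and from 9.14 to 9.98 (median 9.31) overloaded, with overlap (-0.54 ± 0.15, adjusted p = 0.0024). Ndufs6 and Ndufa9 are named for the size of their fall, after their values were seen.

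Ndufa12 attaches at the junction of the electron-carrying modules, where it takes the place of the assembly factor Ndufaf2. Its wildtype arrays ran from 10.74 to 10.87 (median 10.82) untreated and from 9.75 to 10.17 (median 10.09) overloaded, a 1.7-fold fall (-0.76 ± 0.06), with the smallest adjusted p of the set (1.0e-10). Mstn-/- arrays ran from 10.43 to 10.77 and from 10.21 to 10.44, ranges that only just overlap (-0.34 ± 0.06, adjusted p = 8.0e-05). Ndufa9, which sits beside the ubiquinone site, was lower in wildtype (-0.94 ± 0.11) and in Mstn-/- muscle (-0.47 ± 0.11). Ndufa6, a small protein that anchors a copy of the acyl carrier to the arm, went from 10.09 to 10.16 untreated to 9.25 to 9.62 overloaded in wildtype (-0.59 ± 0.07, adjusted p = 4.9e-08). On Mstn-/- arrays its untreated range of 10.09 to 10.48 and overloaded range of 9.95 to 10.35 overlapped almost entirely (-0.03 ± 0.07, adjusted p = 0.75). With that wildtype array left out, the wildtype differences were -0.70 for Ndufa12, -0.84 for Ndufa9 and -0.54 for Ndufa6.

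The promoters of Ndufs6, Ndufa9 and Ndufaf4, which had the largest wildtype falls over all arrays, and of Ndufb2, the gene with no call in wildtype, are shown to set genes that moved apart beside each other. The place of Ndufaf4 (-0.89) in that order is not fixed, since Ndufaf5 stood at -0.87 and passed it without overloaded wildtype replicate 3 (-0.84 against -0.81). Each is the RefSeq sequence of mouse build GRCm38.p6 from 250 bases before to 50 bases after the annotated start, read 5′ to 3′ on the gene's strand, and capitals mark a match to a searched motif. They lie at chr13:73328433-73328732 on the minus strand (Ndufs6), chr6:126849095-126849394 on the minus strand (Ndufa9), chr4:24897833-24898132 on the plus strand (Ndufaf4) and chr6:39592315-39592614 on the plus strand (Ndufb2).
Ndufs6: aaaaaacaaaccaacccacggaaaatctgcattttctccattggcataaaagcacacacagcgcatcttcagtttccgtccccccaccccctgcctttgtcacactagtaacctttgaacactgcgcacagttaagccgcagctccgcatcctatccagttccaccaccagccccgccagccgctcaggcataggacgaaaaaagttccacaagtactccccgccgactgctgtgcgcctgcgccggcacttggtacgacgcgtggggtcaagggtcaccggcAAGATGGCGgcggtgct
Ndufa9: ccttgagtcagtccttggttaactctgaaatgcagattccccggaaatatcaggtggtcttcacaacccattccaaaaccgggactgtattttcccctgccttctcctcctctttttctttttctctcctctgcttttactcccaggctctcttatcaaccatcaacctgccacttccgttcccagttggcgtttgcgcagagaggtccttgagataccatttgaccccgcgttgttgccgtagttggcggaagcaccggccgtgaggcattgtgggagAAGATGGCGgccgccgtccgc
Ndufaf4: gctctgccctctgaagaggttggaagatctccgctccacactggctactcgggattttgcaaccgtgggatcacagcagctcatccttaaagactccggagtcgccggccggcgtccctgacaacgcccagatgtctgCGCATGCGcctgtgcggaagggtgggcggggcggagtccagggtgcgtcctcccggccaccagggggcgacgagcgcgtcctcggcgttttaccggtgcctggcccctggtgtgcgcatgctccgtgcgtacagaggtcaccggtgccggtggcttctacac
Ndufb2: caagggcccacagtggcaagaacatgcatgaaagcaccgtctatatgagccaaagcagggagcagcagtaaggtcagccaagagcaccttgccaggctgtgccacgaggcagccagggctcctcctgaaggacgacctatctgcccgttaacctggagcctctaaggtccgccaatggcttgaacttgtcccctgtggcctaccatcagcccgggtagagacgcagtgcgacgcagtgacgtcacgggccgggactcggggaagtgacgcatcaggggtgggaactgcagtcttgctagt
The capitals in Ndufs6 and Ndufa9 are a YY1 site and those in Ndufaf4 an NRF1 core, while Ndufb2 holds none of the 4 motifs.

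These motifs were searched on both strands in the 40 promoters that the table lists for 38 of the 43 genes and in all 32851 promoters. YY1 and NRF1 are transcription factors long tied to mitochondrial genes. The YY1 site AAGATGGCG was in 5 Nduf promoters (12.5%) and in 1.4% of all promoters, in Ndufs6, Ndufa9, Ndufc1, Ndufs4 and Ndufs7. The NRF1 core CGCATGCG was in 4 (10.0%, with 1.87% of all), in Ndufaf4, Ndufaf5, Ndufa8 and Ndufa11. The GABP/ETS site CCGGAAGT was in Ndufs3 alone (2.50%, with 3.89% of all). The site TCAAGGTCA of estrogen-related receptors was in 0 of 40, with 0.423% of all. Any of the 4 motifs was in 10 of the 40 Nduf promoters (25.0%, with 7.21% of all). Ndufa12, Ndufb11, Ndufa4 and Ndufb6, all called lower in wildtype, were among the genes whose promoters held none. A link between motif and fall was not tested. No Nduf promoter held more than 1 of the motifs, and a match describes letters in the window only.

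All 9 proximal membrane arm subunits, which lie next to the peripheral arm, were lower in wildtype (median -0.44), against 35.6% of all genes. In Mstn-/- muscle 4 of 9 were lower (median -0.08), not far above the 33.5% of all genes. Ndufa10, which resembles nucleoside kinases, had the smallest adjusted p for the difference between genotypes in this group (0.0041). It ran from 12.06 to 12.17 (median 12.11) on untreated and from 11.23 to 11.90 (median 11.72) on overloaded wildtype arrays (-0.44 ± 0.07, adjusted p = 8.8e-06). Ndufa10 in Mstn-/- muscle ran from 11.70 to 11.87 and from 11.63 to 11.89, one range inside the other, with a difference of 0.00 ± 0.07. Ndufs5, a cysteine-rich protein on the intermembrane space side, was lower in both genotypes (-0.61 ± 0.10 and -0.52 ± 0.10). Its arrays ran from 9.70 to 10.09 and from 8.85 to 9.41 in wildtype, and from 9.24 to 9.69 and from 8.80 to 9.23 in Mstn-/- muscle, with no overlap in either. Ndufa3, a small membrane subunit, was lower in wildtype (-0.43 ± 0.05) and in Mstn-/- muscle (-0.18 ± 0.05). Leaving out overloaded wildtype replicate 3 gave wildtype differences of -0.36 for Ndufa10, -0.60 for Ndufs5 and -0.39 for Ndufa3.

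Of the 9 distal membrane arm subunits, which surround the outer proton-pumping units, 8 were lower in wildtype (median -0.54), against 35.6% of all genes. In Mstn-/- muscle 4 were lower, not far above the 33.5% of all genes. There 1 was higher, against 27.1%, and the median was -0.17. Ndufb6 ran from 11.10 to 11.42 (median 11.28) on untreated and from 9.98 to 10.87 (median 10.50) on overloaded wildtype arrays, with no overlap (-0.78 ± 0.10, 1.71-fold, adjusted p = 2.7e-07). Its Mstn-/- arrays ran from 11.50 to 11.83 untreated and from 11.42 to 11.80 overloaded, ranges that nearly coincide (0.04 ± 0.10, adjusted p = 0.75). Ndufb11, encoded on the X chromosome, had narrow Mstn-/- groups, from 12.74 to 12.81 untreated and from 12.53 to 12.58 overloaded, without overlap (-0.23 ± 0.05, adjusted p = 1.5e-04). In wildtype Ndufb11 fell by 0.53 ± 0.05 (adjusted p = 1.3e-10). Leaving out overloaded wildtype replicate 3 gave -0.67 for Ndufb6 and -0.49 for Ndufb11 in wildtype.

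Ndufb2 was the subunit that went against the rest. On wildtype arrays it ran from 7.86 to 8.17 (median 7.97) untreated and from 7.85 to 8.16 (median 8.10) overloaded, the same range in practice (0.06 ± 0.09, adjusted p = 0.58). In Mstn-/- muscle it ran from 7.69 to 7.99 (median 7.91) untreated and from 8.01 to 8.56 (median 8.07) overloaded. These ranges just missed each other, with 2 overloaded replicates well above the other 4, and the rise was 1.23-fold (0.30 ± 0.09, adjusted p = 0.0039). Ndufb2 had the lowest mean of the 34 subunits in every group (8.00 in untreated wildtype), and a low signal can understate a difference. The assembly factor Ndufaf6, at 7.47 in that group, was called lower in wildtype. Whether the low signal hid a fall of Ndufb2 was not tested. Ndufab1, the mitochondrial acyl carrier that sits in both arms, was lower in wildtype (-0.55 ± 0.08, and -0.47 ± 0.06 without overloaded wildtype replicate 3) and in Mstn-/- muscle (-0.20 ± 0.08). Its Mstn-/- call did not pass without untreated Mstn-/- replicate 2 or 4 or overloaded Mstn-/- replicate 3, 4 or 6 (adjusted p 0.053 to 0.077).

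All 7 Nduf assembly factors, which help to build the complex but are not part of it when finished, were lower in wildtype (median -0.69). Of all genes 35.6% were lower there. In Mstn-/- muscle 3 of the 7 factors were lower (median -0.16), not far above the 33.5% of all genes. Ndufaf4, which acts with Ndufaf3 on the ubiquinone-binding module, fell the most of them in Mstn-/- muscle and, with Ndufaf5, in wildtype. It ran from 9.21 to 9.39 (median 9.29) untreated and from 8.00 to 8.55 (median 8.48) overloaded in wildtype (-0.89 ± 0.08, 1.86-fold, adjusted p = 2.4e-10). Its Mstn-/- arrays ran from 9.16 to 9.37 untreated and from 8.37 to 8.87 overloaded, again without overlap (-0.59 ± 0.08, 1.51-fold, adjusted p = 5.2e-07). Its wildtype difference was -0.81 ± 0.07 without overloaded wildtype replicate 3.

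Ndufaf1 belongs to the membrane arm assembly machinery. Its wildtype arrays ran from 9.43 to 9.71 (median 9.55) untreated and from 8.36 to 9.35 (median 8.81) overloaded (-0.69 ± 0.13, adjusted p = 3.7e-05, and -0.59 ± 0.12 without replicate 3). Mstn-/- arrays ran from 9.99 to 10.29 (median 10.07) and from 9.80 to 10.70 (median 10.04), and the means were equal when rounded (-0.00 ± 0.13). All Mstn-/- arrays, overloaded or not, lay above all wildtype arrays for this gene.

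Ndufa4 carries the name of the family but is now counted as a subunit of cytochrome c oxidase, complex IV. It ran from 10.79 to 10.97 (median 10.94) untreated and from 9.81 to 10.28 (median 10.19) overloaded in wildtype, a 1.7-fold fall (-0.77 ± 0.08, adjusted p = 1.9e-09, and -0.70 ± 0.07 without replicate 3). Its Mstn-/- arrays ran from 10.73 to 11.00 untreated and from 10.53 to 11.01 overloaded, with overlap (-0.09 ± 0.08, adjusted p = 0.30). Ndufa4l2, a paralogue induced by low oxygen in many cells, was the only gene called higher in wildtype, from 7.66 to 8.06 untreated to 7.83 to 8.15 overloaded, with overlap. That difference of 0.18 ± 0.08 was close to the threshold (adjusted p = 0.045) and did not pass in 14 of 34 alternative fits, with adjusted p between 0.050 and 0.18. In Mstn-/- muscle Ndufa4l2 ran from 7.35 to 7.68 untreated and from 7.60 to 8.05 overloaded (0.21 ± 0.08, adjusted p = 0.019, and 0.063 to 0.068 in the 3 fits in which it did not pass).

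**Figure D2:**
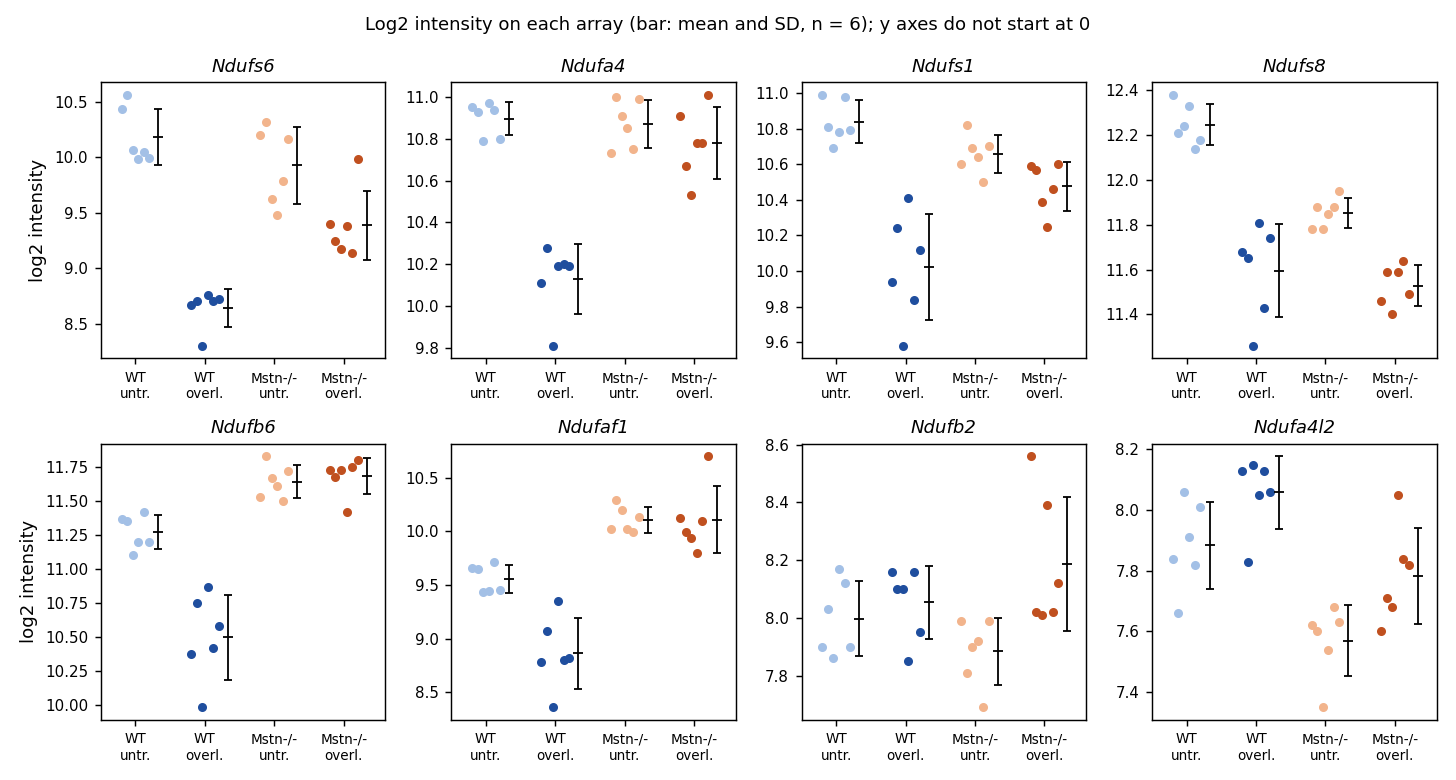
Log2 intensity (y axes, not starting at 0) of 8 Nduf genes on each of the 24 arrays, by group (x axes; WT wildtype, untr. untreated, overl. overloaded). Dots are arrays, and the bar beside each group is its mean and SD over 6 arrays. Overloaded wildtype arrays stand below all other groups for Ndufs6, Ndufa4, Ndufb6 and Ndufaf1, and Ndufb2 and Ndufa4l2 show no such drop.

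The difference between the genotypes in their overload response was tested directly, as the Mstn-/- difference minus the wildtype one, so a positive value is a smaller fall or a larger rise in Mstn-/- muscle. It was positive in all 43 genes, with a median of 0.35 against -0.02 over all genes, and 31 passed the test, against 8.92% of all genes in this direction. None passed limma's test in the other direction, against 8.44%, and none would without adjustment, as no estimate was negative. Signs near 0 were not fixed: Ndufb7 was at -0.01 ± 0.07 without overloaded wildtype replicate 3, and Ndufa4l2 turned negative without untreated Mstn-/- replicate 3, overloaded Mstn-/- replicate 4, untreated wildtype replicate 3 or overloaded wildtype replicate 2. By role, 6 of 6 core subunits, 8 of 9 peripheral accessory, 7 of 9 proximal, 4 of 9 distal subunits and 4 of 7 assembly factors passed. Without overloaded wildtype replicate 3 the count was 26, with a median of 0.31, and 5 of 9 peripheral accessory and 5 of 9 proximal subunits passed. The peripheral accessory count was also 5 without untreated wildtype replicate 1 or 2, untreated Mstn-/- replicate 1 or overloaded Mstn-/- replicate 1, or with no filter on low intensities. With overloaded wildtype replicate 4 left out, the count over all 43 was 32, with a median of 0.40, of which 6 were core, 7 peripheral accessory, 7 proximal and 5 distal subunits and 5 assembly factors.

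The smallest adjusted p belonged to Ndufa4 (0.68 ± 0.11, adjusted p = 1.3e-04), then Ndufa6 (0.57 ± 0.10, adjusted p = 3.5e-04) and Ndufb6 (0.82 ± 0.15, adjusted p = 3.7e-04). In all 3 the wildtype fall was called and the Mstn-/- difference was not. Leaving out overloaded wildtype replicate 3 gave 0.61, 0.51 and 0.71. Ndufs6 had the largest estimate, 0.99 ± 0.21 (adjusted p = 0.0014), which was 0.92 ± 0.20 without overloaded wildtype replicate 3. Among the core subunits the differences ran from 0.31 ± 0.09 in Ndufv2 to 0.64 ± 0.14 in Ndufs1, and from 0.24 ± 0.07 to 0.55 ± 0.12 in the same genes without that array.

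Of the 19 genes lower in wildtype but not called in Mstn-/- muscle, 16 passed this test of the difference. So did 15 of the 22 that were lower in both. Without overloaded wildtype replicate 3 these were 11 of 16 and 15 of 25, and without replicate 4 they were 17 of 19 and 15 of 22. Ndufs5 (0.09 ± 0.14, 95% interval -0.19 to 0.37), Ndufs4 (0.08 ± 0.15, -0.24 to 0.39) and Ndufb7 (0.06 ± 0.09, -0.12 to 0.24) were the subunits with the estimates nearest 0. These 3, of which Ndufs4 and Ndufb7 are named after their values were seen, were lower in both genotypes. Across the 43 genes the changes in the genotypes, which share no arrays, had a Pearson r of 0.70. That is a description, as genes on the same arrays vary together.

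**Figure D3:**
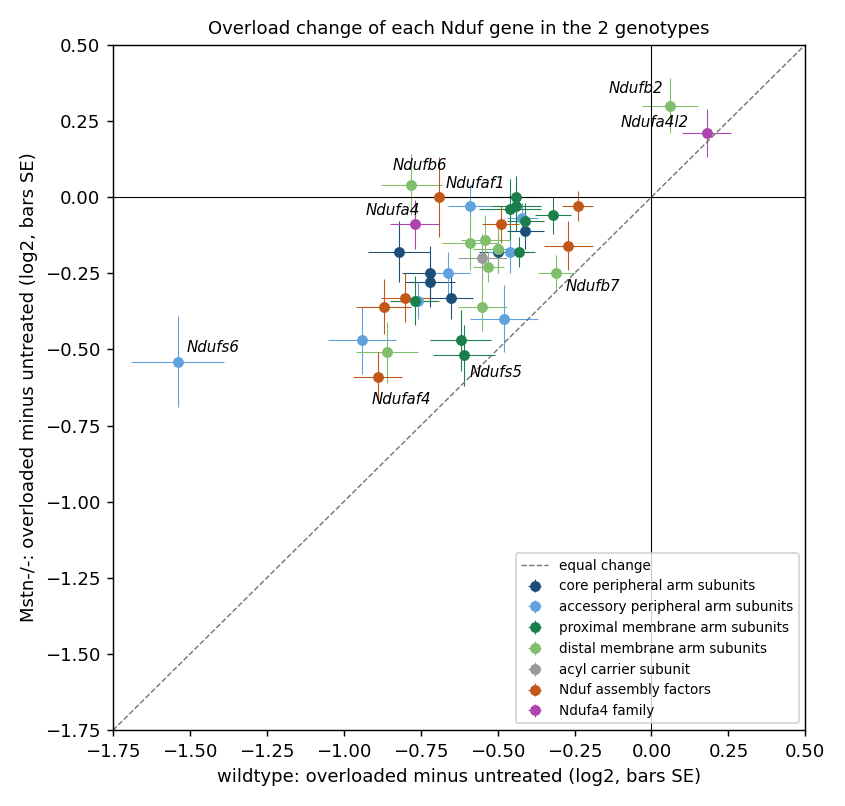
Overload difference (log2, overloaded minus untreated) of each of the 43 Nduf genes in wildtype (x axis) against Mstn-/- muscle (y axis), coloured by role. Bars are SE and the dashed line marks equal change. Every point lies above the dashed line, and Ndufs6 is at -1.54 in wildtype and -0.54 in Mstn-/- muscle.

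Without overload, Mstn-/- and wildtype muscle differed by less. Of the 43 genes 11 were lower in Mstn-/- muscle, against 10.2% of all genes tested. Another 4 were higher, no larger a share than the 11.1% of all genes. The median was -0.11, with -0.01 over all genes, and 14 of 43 genes did not overlap between genotypes, against 12.0% of all genes. Ndufv3, an accessory subunit beside the flavin-binding core, ran from 9.22 to 9.48 (median 9.35) in wildtype and from 8.87 to 9.11 (median 9.06) in Mstn-/- muscle (-0.33 ± 0.05, adjusted p = 3.4e-05). Ndufs8 (-0.39 ± 0.07, adjusted p = 2.3e-04) and Ndufa10 (-0.35 ± 0.07, adjusted p = 0.0011) were also lower, and in all 3 every Mstn-/- array lay below every wildtype array. The others lower were Ndufs5, Ndufs7, Ndufa5, Ndufa7, Ndufa13, Ndufb9, Ndufaf5 and Ndufa4l2, with differences from -0.38 to -0.22. Ndufa7 did not pass without untreated Mstn-/- replicate 1 or 3 or untreated wildtype replicate 1, 2 or 4 (adjusted p 0.058 to 0.086). Ndufb9 did not pass without untreated Mstn-/- replicate 1 (adjusted p = 0.057).

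The 4 genes higher in untreated Mstn-/- muscle were Ndufaf1, Ndufb6, Ndufa3 and Ndufb7. Ndufaf1 was 1.47-fold higher (0.55 ± 0.13, adjusted p = 0.0027) and Ndufb6 was 1.29-fold higher (0.37 ± 0.10, adjusted p = 0.012). Ndufa3 ran from 11.77 to 11.93 in wildtype and from 12.02 to 12.17 in Mstn-/- muscle (0.27 ± 0.05, adjusted p = 5.7e-04). Ndufb7, another cysteine-rich subunit of the intermembrane space, differed by 0.18 ± 0.06 (adjusted p = 0.037). That call did not pass without untreated wildtype replicate 1, 3, 4 or 6 or any of untreated Mstn-/- replicates 2 to 6 (adjusted p 0.054 to 0.078). None of the 4 overlapped between genotypes.

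Markers of slow fibres, which hold many mitochondria, also differed in the untreated muscles. Of 8 such genes 7 were lower in Mstn-/- muscle, against 10.2% of all genes tested, with a median of -1.67. Their summed intensity ran from 3020 to 4063 there and from 8551 to 13716 in wildtype. The fast oxidative myosin Myh2 (-0.52 ± 0.07) and myoglobin (Mb, -0.44 ± 0.05) were lower as well. Between the overloaded groups all 8 slow-fibre markers were lower in Mstn-/- muscle (median -1.31), against 19.0% of all genes tested. In that comparison 24 of 43 Nduf genes were higher and 2 lower. The part of these markers in the Nduf differences was not tested.

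Under overload the direction was mostly the opposite. 24 Nduf genes were higher in Mstn-/- than in wildtype muscle, against 17.5% of all genes tested, and 2 were lower, Ndufa4l2 and Ndufs5, against 19.0%. The median was 0.24, with -0.03 over all genes, and 14 genes did not overlap, against 15.5% of all genes. This comparison shares its overloaded arrays with the comparisons above. Without overloaded wildtype replicate 3, 22 were higher and 2 lower, with a median of 0.18, and without replicate 4 the counts were 29 and 2, with a median of 0.27.

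Ndufaf1 and Ndufb6 differed the most. Ndufaf1 was 2.37-fold higher in overloaded Mstn-/- muscle (1.25 ± 0.13, adjusted p = 6.4e-08) and Ndufb6 was 2.28-fold higher (1.19 ± 0.10, adjusted p = 6.2e-09). Without overloaded wildtype replicate 3 they were 1.14 ± 0.12 and 1.08 ± 0.09. Ndufa3 ran from 11.25 to 11.53 in overloaded wildtype and from 11.81 to 12.07 in overloaded Mstn-/- muscle (0.52 ± 0.05, adjusted p = 5.9e-08, and 0.48 ± 0.05 without that array). All 3 were thus higher in Mstn-/- muscle with and without overload.

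The core subunits Ndufv1 (0.53 ± 0.09), Ndufs1 (0.45 ± 0.10), Ndufs3 (0.34 ± 0.08) and Ndufv2 (0.22 ± 0.06) were higher in overloaded Mstn-/- muscle, and at 0.41, 0.37, 0.26 and 0.15 they still passed without overloaded wildtype replicate 3. Ndufs7 (0.06 ± 0.06) and Ndufs8 (-0.07 ± 0.07), the pair already lower without overload, did not pass. Ndufa4l2 was lower (-0.28 ± 0.08, adjusted p = 0.0057), and so was Ndufs5 (-0.29 ± 0.10, adjusted p = 0.021), a call that did not pass in 4 fits that left out a single array (adjusted p 0.050 to 0.054). Those arrays were overloaded Mstn-/- replicates 1, 3 and 6 and overloaded wildtype replicate 2.

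**Figure D4:**
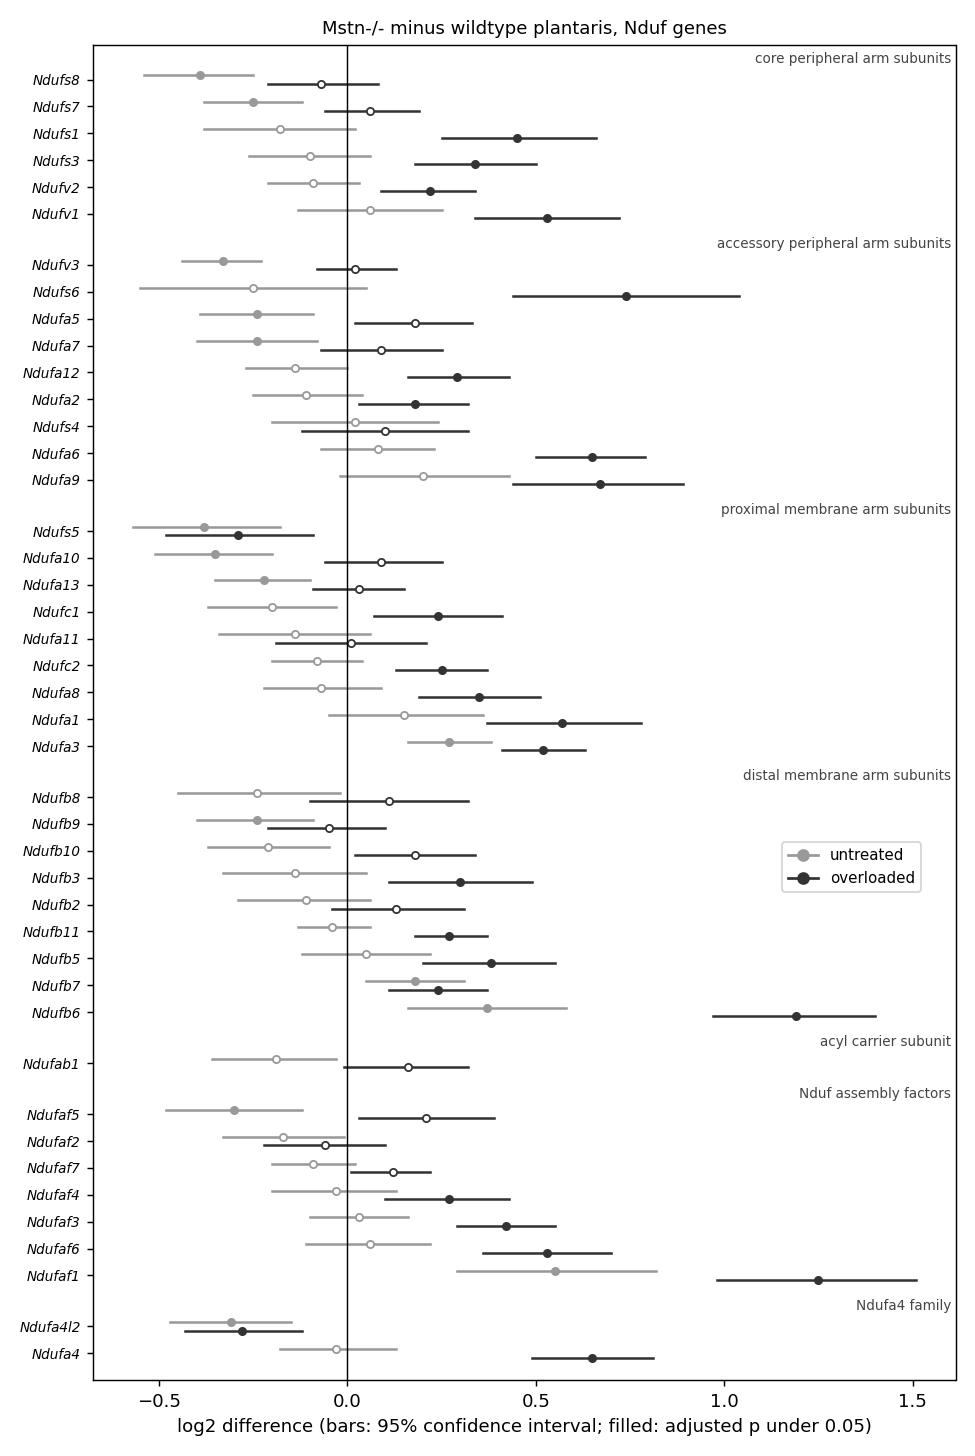
Mstn-/- minus wildtype log2 intensity (x axis) for each of the 43 Nduf genes (y axis, by role) without overload (grey) and under overload (black). Points are fitted differences, bars 95% confidence intervals, and filled points have an adjusted p under 0.05. The black points lie right of the grey ones in every row, with Ndufaf1 at 1.25 and Ndufb6 at 1.19 under overload.

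The Nduf genes moved together from array to array within groups. After the group means were taken out, the median correlation between pairs of the 43 genes over the 24 arrays was 0.50, and 0.55 among the 34 subunits, while that of a Nduf gene with other genes was 0.03. All values of a pair come from the same arrays, and no test was made. Ndufa4l2 (-0.31) and Ndufb2 (-0.14) were the 2 genes that correlated negatively with the median of the others.

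The median Nduf gene, set against the untreated wildtype mean, ran from -0.07 to 0.09 on untreated and from -0.88 to -0.40 (median -0.51) on overloaded wildtype arrays. On Mstn-/- arrays it ran from -0.17 to -0.07 untreated and from -0.42 to -0.24 (median -0.27) overloaded. The least affected overloaded wildtype array, replicate 4, thus lay at about the level of the most affected overloaded Mstn-/- array, replicate 3. Below replicate 5 of overloaded wildtype, at -0.60, lay only its replicate 3.

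**Figure D5:**
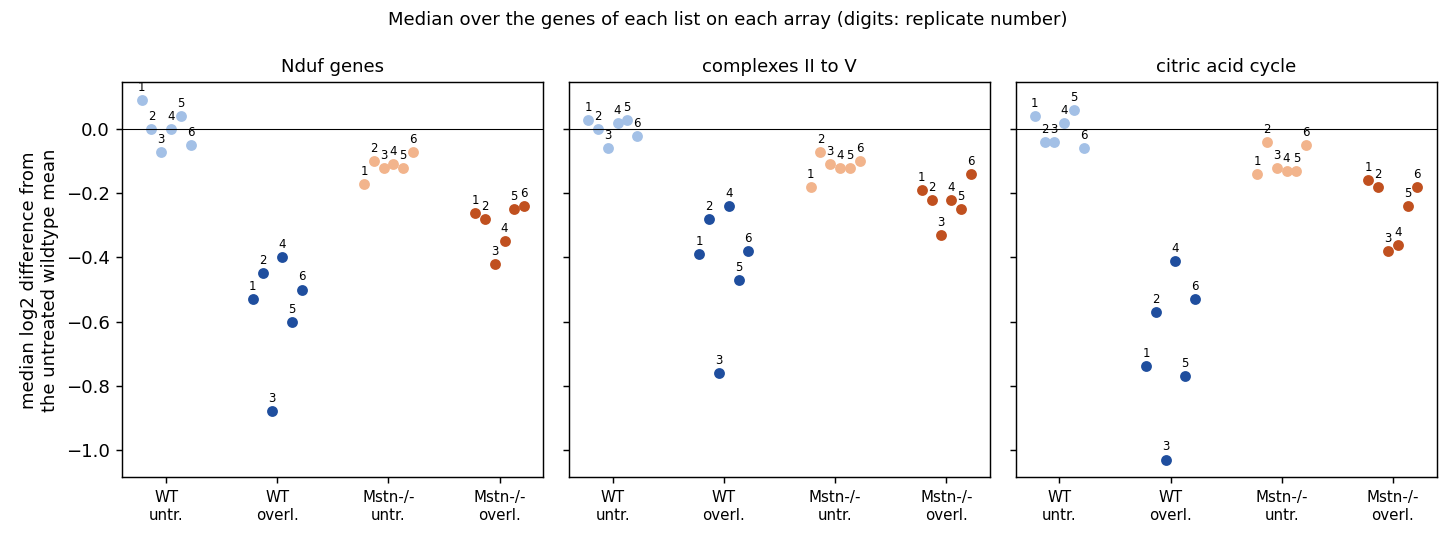
Median over the genes of a list of the log2 difference from the untreated wildtype mean (y axis) on each array, by group (x axis), with digits giving the replicate number. The panels show the 43 Nduf genes, 38 genes of complexes II to V and 12 genes of the citric acid cycle. Overloaded wildtype replicate 3 is the lowest array in all 3 panels, at -0.88, -0.76 and -1.03.

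The nuclear genes of the other respiratory complexes were mostly lower too in wildtype, and in Mstn-/- muscle about as often lower as genes in general. Of 38 genes of complexes II to V, 36 were lower under overload in wildtype (median -0.41), against 35.6% of all genes. Of the same genes 12 were lower in Mstn-/- muscle, against 33.5% of all genes, and 2 higher, against 27.1% (median -0.08). The difference between the responses passed in 25, all positive (median 0.38). Succinate dehydrogenase, complex II, had 4 of 4 genes pass in that test, with Sdhc at 0.58 ± 0.10 (adjusted p = 1.7e-04). The 2 that rose in Mstn-/- muscle were Atp5k (0.39 ± 0.10), of the ATP synthase, and Uqcr11 (0.26 ± 0.08), of complex III. In the citric acid cycle, which makes the NADH that complex I oxidises, 12 of 12 genes were lower in wildtype (median -0.70) and 6 of 12 in Mstn-/- muscle (median -0.17). There Suclg2, of succinyl-CoA synthetase, was at -1.09 ± 0.08 and -0.52 ± 0.08.

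Complex I assembly factors outside the Nduf family followed in part. 11 of 12 were lower in wildtype (median -0.40), against 35.6% of all genes, and 8 of 12 in Mstn-/- muscle (median -0.23), against 33.5%. The difference between responses passed in 4, all positive (median 0.25), against 8.92% of all genes. Ecsit, which works with Ndufaf1, was lower in both genotypes (-0.89 ± 0.09 and -0.57 ± 0.09). Timmdc1, a membrane arm assembly factor, was higher in Mstn-/- than wildtype muscle without overload (0.36 ± 0.07) and under it (0.51 ± 0.07), as Ndufaf1 was.

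Of 13 regulators of mitochondrial genes, 9 were lower and 2 higher under overload in wildtype, against 35.6% and 30.3% of all genes. In Mstn-/- muscle 7 were lower and 3 higher, against 33.5% and 27.1%. As a list they did not share the Nduf difference in response. It passed as positive in 4 and as negative in 2, against 8.92% and 8.44% of all genes. In 7 it did not pass, and the median was 0.05 (range -0.28 to 1.38). Ppargc1a, which encodes the coactivator PGC-1alpha, ran from 10.36 to 10.59 on untreated and from 8.63 to 9.64 on overloaded wildtype arrays (-1.31 ± 0.12, 2.47-fold, adjusted p = 3.4e-10). Its Mstn-/- arrays ran from 10.24 to 10.38 untreated and from 9.91 to 10.66 overloaded, with overlap (0.08 ± 0.12, adjusted p = 0.59). The difference in response was 1.38 ± 0.17 (adjusted p = 4.4e-06). Ppara, a nuclear receptor of fatty acid oxidation, was lower in wildtype (-1.68 ± 0.11) and in Mstn-/- muscle (-0.60 ± 0.11), with a difference of 1.08 ± 0.16 (adjusted p = 5.3e-05). Of the factors whose motifs were searched, only Nrf1 and Yy1 are described here. The genes of GABP and the estrogen-related receptors, also among the 13, are not. Nrf1 was lower in wildtype (-0.13 ± 0.04) and differed by -0.08 ± 0.04 in Mstn-/- muscle (adjusted p = 0.091). Yy1 differed by 0.04 ± 0.05 in wildtype (adjusted p = 0.48) and was lower in Mstn-/- muscle (-0.24 ± 0.05). Its difference in response was 1 of the 2 that passed as negative, and the other is not described here.

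Markers of macrophages and fibroblasts rose with overload in both genotypes. Of 12 macrophage markers 11 were higher in wildtype (median 2.22), and in Mstn-/- muscle 11 were higher and 1 lower (median 1.51), and the difference in response passed in 5, all negative. Their summed intensity ran from 2744 to 3717 untreated and 13200 to 19785 overloaded in wildtype, and from 3982 to 5077 and 9054 to 17867 in Mstn-/- muscle. Of 8 fibroblast markers 8 and 7 were higher (medians 2.15 and 1.51), and the difference passed in 5, all negative, with sums of 12394 to 16810 and 37607 to 44863 in wildtype and 13645 to 17232 and 25979 to 31442 in Mstn-/- muscle. Overloaded wildtype replicate 3, lowest for most Nduf genes, had the highest sum of both lists. Of 8 endothelial markers 6 were higher and 1 lower in each genotype (medians 0.35 and 0.49), and the difference in response passed in 4, all positive. Of 5 adipocyte markers 1 was lower in wildtype and 1 higher in Mstn-/- muscle, and the difference passed in 1, as positive. Of all genes tested 30.3% were higher and 35.6% lower under overload in wildtype, and 27.1% and 33.5% in Mstn-/- muscle. The difference passed as negative in 8.44% of all genes and as positive in 8.92%. No marker was at 0, since the lowest intensity in the table was 4.72. Their part in the Nduf differences was not tested.

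The skeletal muscle markers moved in both directions. Of 8, 3 were lower and 1 higher under overload in wildtype (median 0.04), against 35.6% and 30.3% of all genes. In Mstn-/- muscle 4 were lower and 3 higher (median -0.04), against 33.5% and 27.1%. The summed intensity of these markers ran from 90228 to 93351 untreated and from 76636 to 88159 overloaded in wildtype. In Mstn-/- muscle it ran from 83854 to 89501 and from 83880 to 88998. The fast myosin Myh4 had the largest change among them in wildtype (-1.08 ± 0.10) and stood at -0.26 ± 0.10 in Mstn-/- muscle. Of 8 slow-fibre markers 6 were higher and 1 lower in wildtype (median 1.09), and 5 were higher in Mstn-/- muscle (median 1.20).

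For 5 Nduf genes (Ndufa11, Ndufab1, Ndufb11, Ndufc1 and Ndufs3) a second probe set allowed a check. It gave a lower level under overload in wildtype for all 5, from -0.77 ± 0.07 for Ndufb11 to -0.33 ± 0.08 for Ndufa11. In Mstn-/- muscle 4 of 5 were lower as well, while the second probe set of Ndufab1 stood at 0.18 ± 0.11 beside -0.20 ± 0.08 for the one used. A probe set shared by Ndufs5 and its processed copy Ndufs5-ps, outside the 43, gave -0.66 ± 0.09 and -0.44 ± 0.09 under overload, but -0.02 ± 0.09 between the overloaded genotypes where the Ndufs5 probe set gave -0.29 ± 0.10. Both probe sets shared by Ndufb4 and Ndufb4b were lower under overload, the brighter one by a log2 difference of -0.63 ± 0.05 in wildtype and -0.39 ± 0.05 in Mstn-/- muscle. Signal from near-identical copies cannot be separated in such probe sets.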

How the data were processed

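The series holds 24 Affymetrix arrays of mouse plantaris muscle in 4 groups of 6. The deposited values are intensity per probe set after RMA, which corrects background, normalizes across arrays and summarises probes, per the submitters' processing notes (no version is named). They run from 4.72 to 25588.9, which shows a linear scale, and log2 was taken without a pseudocount. GEO's platform annotation gave 21640 of 34760 probe sets exactly 1 gene symbol, and the 1321 with several and 11799 without were left out of the comparisons. Genes with at least 1 group mean above the 30th percentile (intensity 98.9) were tested, 14499 of 19937. limma 3.58.1 in R 4.3.3 estimated 1 mean for each group from all 24 arrays (20 residual degrees of freedom), with eBayes moderation, and p-values were adjusted by the Benjamini-Hochberg method over all genes tested.

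The 5 comparisons were overload in each genotype, Mstn-/- against wildtype in untreated and in overloaded muscle, and the difference between the responses to overload. The Nduf genes, all gene lists and the naming rule were chosen with earlier results of these data known. Named in full are the core subunits, Ndufa4, Ndufa4l2 and, in each comparison and direction, the 3 called Nduf genes with the smallest adjusted p. All 43 Nduf genes matched RefSeq (GRCm38.p6) by gene ID. Correlations within groups used residuals from the group means. The fit was tested on simulated data first. At most 0.0201% of values were identical between a pair of arrays. The number of arrays limits the precision, with a median SE of 0.067 for a difference between groups over all genes. Alternatives were 2 other normalizations, 2 filters, the mean of all probe sets, a trended and robust variance, array weights, only the groups compared, the replicate number as a block, a pseudocount of 16 and leaving out each array in turn. No batch, date or scan information was given in the sources used here, so none was tested.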

Additional observations from a re-analysis of the deposited data

Results flagged for a closer look

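Within groups of 6 arrays, a single array of 10 of 76 groups of the 19 Nduf genes described in full stood apart from the others by Dixon's criterion, where chance alone gives about 1 in 20. The genes share arrays and vary together, so the groups are not independent and the count cannot be compared with that rate. 4 of the 10 were overloaded wildtype replicate 3, the lowest array of its group for most Nduf genes. Its log2 intensity was 9.75 for Ndufa12 (nearest other array 10.03), 9.81 for Ndufa4 (10.11), 9.25 for Ndufa6 (9.53) and 8.00 for Ndufaf4 (8.35). Overloaded wildtype replicate 2 was low for Ndufa4l2 (7.83, next 8.05). In untreated Mstn-/- muscle replicate 1 was low for Ndufa12 (10.43, next 10.66) and replicate 2 high for Ndufa6 (10.48, next 10.21). In overloaded Mstn-/- muscle replicate 6 was high for Ndufaf1 (10.70, next 10.12) and replicate 4 low for Ndufb6 (11.42, next 11.68). Untreated wildtype replicate 1 was high for Ndufs7 (13.38, next 13.29).

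The overload response differed between the genotypes by limma's test of the difference in 15 of these genes, each with a positive difference. Ndufa4, Ndufa6 and Ndufb6 had the smallest adjusted p in this same test, a rule by which genes were named. Others were named by tests that share its arrays. The count of 15 is thus partly set by the choice of genes and cannot be compared with the 8.92% of all genes. Over all 43 Nduf genes 31 passed. On the log2 scale the difference was 0.82 for Ndufb6, 0.69 for Ndufaf1, 0.68 for Ndufa4, 0.64 for Ndufs1 and 0.57 for Ndufa6. It was 0.47 for Ndufv1, 0.45 for Ndufa10, 0.44 for Ndufs3, 0.43 for Ndufa12 and 0.35 for Ndufv3. For Ndufs8 it was 0.33, for Ndufs7 0.32, for Ndufv2 0.31, for Ndufb11 0.31 and for Ndufa3 0.25.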

How the results depend on the processing

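No Nduf gene that passed in a comparison changed sign there under any alternative run. Estimates that had not passed did so 39 times over all genes and fits. The Nduf genes lower under overload in wildtype numbered 41 in all 34 alternative fits. The 1 higher there, Ndufa4l2, was 0 after quantile normalization, after arrays were shifted to the same median, with no filter, with array weights and with only the 2 groups fitted, and 0 to 1 when single arrays were left out. It was lost without untreated wildtype replicate 1, 2, 4 or 5 or overloaded wildtype replicate 1, 3, 4, 5 or 6. In Mstn-/- muscle the 2 higher became 1 after quantile normalization and 1 to 2 when single arrays were left out (1 without untreated Mstn-/- replicate 3 or overloaded Mstn-/- replicate 4). The 2 lower between overloaded genotypes were 1 to 2 when single arrays were left out. The cause was not tested. Leaving out single arrays gave 19 to 25 lower under overload in Mstn-/- muscle, 9 to 15 lower and 3 to 4 higher in untreated Mstn-/- against wildtype, 22 to 29 higher under overload, and 25 to 33 for the difference in response (median 0.31 to 0.40).

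The replicate numbers did not pair the arrays: the 36 correlations between same-numbered arrays of different groups had a median of 0.02 (-0.41 to 0.36), and 4 of 24 arrays correlated best with their own number. With the replicate number as a block, 41 Nduf genes were lower and 1 higher under overload in wildtype, 22 and 2 in Mstn-/-, 12 and 4 between untreated genotypes, 2 and 26 between overloaded genotypes, and 33 differed in response. Intensities on an array do not give the depth of a count, and a probe set near background understates a difference.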
